A study of Homo sapiens with 6 samples.

Results

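The transcripts described here are the long noncoding RNAs that a human expression array could follow in U87-EV glioblastoma xenografts under bevacizumab. They were picked by name and by level. A probe set counted when the platform annotation tied it to a single gene symbol of a noncoding kind. Such symbols were LINC or SNHG followed by a number, MIR with a number and HG, an ending in -AS1, -AS2 or -DT, or the names NEAT1, MALAT1, H19, MEG3, GAS5 and PVT1. The probe set also had to average at least 4 on the deposited log2 scale across the 6 arrays. Of the 54675 probe sets on the array, 2483 of 1833 genes bore such a name, and 281 of 215 genes reached that level. That is 11.3% of the named probe sets, against 44.9% of all probe sets with 1 symbol. The 215 genes were 105 antisense genes, 58 intergenic LINC genes, 40 divergent genes, 6 hosts of small nucleolar RNAs, 4 hosts of microRNAs, MEG3 and MALAT1.

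Many long noncoding RNAs, though not all, are spliced and polyadenylated like messenger RNAs, but they carry no long conserved reading frame. Some organise nuclear bodies, as MALAT1 is found in nuclear speckles, where splicing factors gather, and NEAT1 builds paraspeckles. Others matter for what their introns release, small nucleolar RNAs that guide chemical modification of ribosomal RNA or microRNAs that repress messenger RNAs. Many start back to back with a protein-coding gene from a shared promoter (divergent, -DT) or run across such a gene on the opposite strand (antisense, -AS).

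The tumours were U87, an established human glioblastoma line, labelled U87-EV, an addition that the labels do not explain. The cells were injected under the skin of female BALB/c SCID mice aged 6 to 8 weeks, together with Matrigel, and this host lacks functional T and B lymphocytes but keeps innate immune cells. The treated group received bevacizumab, an antibody against human vascular endothelial growth factor A, injected intraperitoneally at 10 mg/kg every 3 days. The control group received saline. Dosing began at a tumour volume of 150 to 200 mm3 and ended at a diameter of about 15 to 30 mm, and each group started with 5 mice. There were 3 arrays per group. The labels do not state that each array was a separate mouse, so p-values measure the spread between arrays, which may be partly technical.

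Levels are GCRMA values on the log2 scale, a background-corrected and normalised probe brightness. A difference is always bevacizumab minus control, and a difference of 1 is a doubling. Over the 18469 probe sets tested, the array medians were 7.93 to 8.01 in the bevacizumab group and 7.82 to 7.99 in the control group. The tumour cell markers VIM and CD44 averaged 15.17 and 14.06 on the bevacizumab arrays, and 15.05 and 13.95 on the control arrays. A further marker of the line, NES, fell by 1.18, at 9.68 ± 0.17 in the bevacizumab group and 10.86 ± 0.23 in the control group (SD, n = 3 each; adjusted p = 0.00965, limma). The glial markers SOX2, S100B, GFAP and OLIG2 averaged under 4. Of 5 mural cell markers, which label the cells that wrap vessels, 2 fell, RGS5 by 2.85 and ACTA2 by 1.79. The others did not pass, with differences of 0.30 for PDGFRB, 0.16 for CSPG4 and -0.51 for NOTCH3. The summed level of the 5, of which ACTA2 was the brightest, was 11.79 to 11.96 on bevacizumab arrays, against 13.05 to 13.39 on control arrays. Of 5 fibroblast markers only COL3A1 fell, by 0.84. None of 2 endothelial markers tested passed, and no macrophage or red blood cell marker with a probe set of its own averaged 4. The probe sets are human and the host is a mouse, so these levels do not measure the number of host cells. Signal of the human tumour cells and signal of mouse RNA on human probes cannot be told apart here.

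Long noncoding RNAs that passed the threshold were more often higher than lower under bevacizumab. Of the 281, 199 differed by less than 0.5 in either direction, which is 70.8%, against 74.4% of all tested probe sets. At an adjusted p under 0.05, 24 of the 281 probe sets, from 21 genes, rose and 8, from 8 genes, fell, by limma with Benjamini-Hochberg adjustment over all 18469 probe sets. Together that is 11.4%, against 15.4% of all tested probe sets. The rises were 8.54%, against a background of 7.46%, and the falls 2.85%, against a background of 7.98%. A call with at least a 2-fold change was made for 14 rises and 2 falls, against background shares of 3.54% and 1.59%. Of the 24 that rose, 3 (EPHA1-AS1, OSER1-DT and EPM2A-DT) were under 4 on all 3 control arrays, met the level rule through the bevacizumab arrays alone and so had to differ. The median difference was 0.09 among the 281 and -0.01 among all tested probe sets. In bulk tumour RNA, a change in the number of cells that make a transcript and a change in its amount per cell cannot be told apart. The part of the lower RGS5 and ACTA2 levels in these calls was not tested.

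The 3 arrays of each group did not overlap for 56 probe sets higher and 19 lower under bevacizumab, against background shares of 18.3% and 20.7%. Together that is 26.7% of the 281, against 39.0% of all tested probe sets. The share called differed with brightness. Among the 139 with a mean of at least 6, 15.8% passed, against 17.4% of all tested probe sets that bright. Among the 142 with a mean between 4 and 6, 7.04% passed, against 8.30% of all probe sets in that range. The counts also leaned on single arrays. Without control array 1 the counts were 5 higher and 1 lower. Without control array 2 they were 5 higher and 0 lower (limma, with 56 at an unadjusted p under 0.05). Leaving out bevacizumab array 2 gave 12 and 3. The share of all tested probe sets called was also lower in these fits, at 3.02%, 5.17% and 7.06% in that order. Of the 281 it was 2.14%, 1.78% and 5.34%. The falls numbered 4 without bevacizumab array 1, 4 without bevacizumab array 3 and 1 without control array 3. In either direction those fits called 15.1%, 10.1% and 7.11% of all tested probe sets, against 10.7%, 7.12% and 6.76% of the 281. The 3′ minus 5′ signal of the ACTB control probe sets, a sign of RNA degradation, was 1.81 ± 0.16 in the bevacizumab group and 1.38 ± 0.26 in the control group (SD, n = 3 each), a difference of 0.43 (two-sided exact permutation p = 0.2, where 0.1 is the smallest possible). For GAPDH it was -0.02 ± 0.03 in the bevacizumab group and -0.12 ± 0.02 in the control group (exact permutation p = 0.1). With the ACTB signal as a covariate limma called none of the 281 and 21 of all 18469 probe sets, while 45 of the 281 had an unadjusted p under 0.05.

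**Figure D1:**
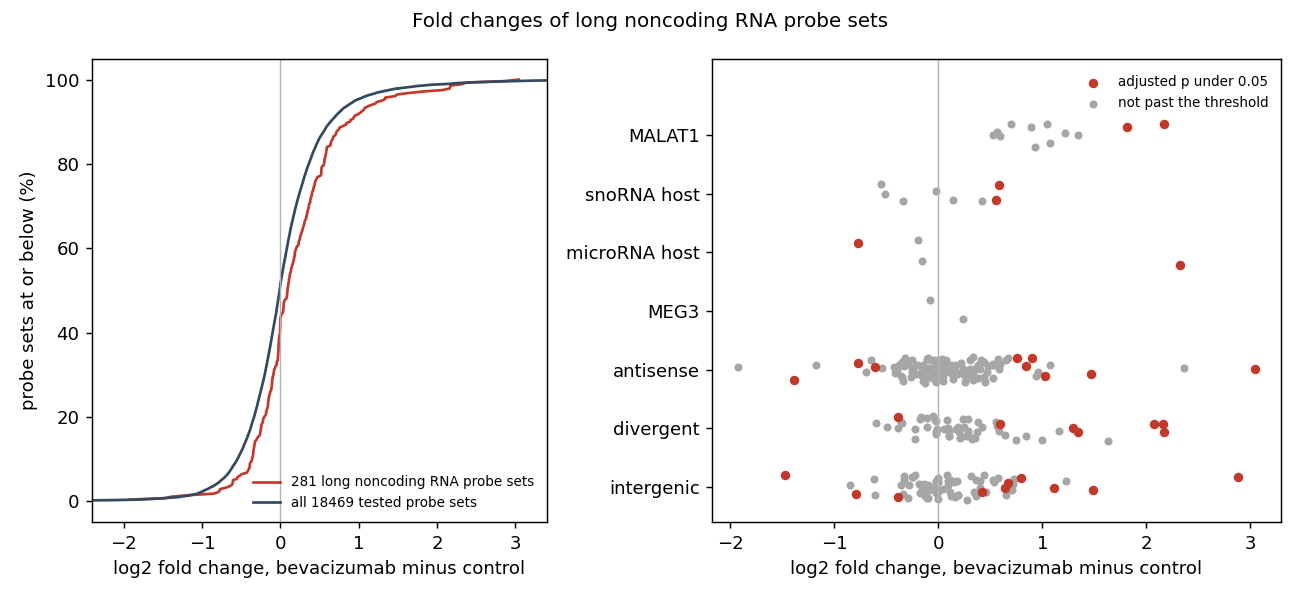
Log2 differences (bevacizumab minus control). The left panel gives the cumulative share of probe sets, in percent, at or below each difference, for the 281 long noncoding RNA probe sets and for all 18469 tested. The right panel shows each of the 281 as a point by class, in red where the adjusted p is under 0.05. The 281 lie slightly to the right of all tested probe sets, with medians of 0.09 and -0.01, and all 12 MALAT1 points lie above 0.

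MIR210HG is the host transcript of miR-210, a microRNA known to be induced when cells lack oxygen. Its RNA carried the smallest adjusted p of the 281. MIR210HG read 6.48, 6.98 and 6.89 on the bevacizumab arrays and 4.46 on each of the 3 control arrays. All treated arrays were well above the controls, which shared a single value. Values shared exactly by 3 to 5 arrays lay at the lowest level of the probe set in 169 tested probe sets and at its highest in 31. The control value was therefore taken as a floor, and the difference of 2.32 (SE 0.15, adjusted p = 0.00212, limma) stands for a fold of at least 5.00. The call held whichever array was left out. Because the 3 controls were equal, the SE, the adjusted p and these fits hold no measured spread among controls. A dimmer MIR210HG probe set, below the level of 4 and so not tested, read 4.14, 3.72 and 4.43 on bevacizumab arrays, against 3.19, 2.60 and 2.88 on controls, again without overlap. The array measured the host RNA only. The mature microRNAs inside the host gene are shown because they are what it is known for, from RefSeq (GRCh38.p14), chr11:568112-568133 for the 3p arm and chr11:568150-568171 for the 5p arm, minus strand, with the seed, bases 2 to 8, in capitals.
hsa-miR-210-3p: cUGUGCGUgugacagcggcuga
hsa-miR-210-5p: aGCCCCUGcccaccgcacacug

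The RefSeq promoter of MIR210HG, from 250 bases before to 50 after the gene start, lies at chr11:568408-568707 on the minus strand (GRCh38.p14). It is shown for its copies of the core that hypoxia-inducible factors bind, ACGTG or GCGTG, searched on both strands, so that CACGT and CACGC also count. It held 2 matches, in capitals, which begin at positions -170 and -9 from the gene start.
MIR210HG promoter: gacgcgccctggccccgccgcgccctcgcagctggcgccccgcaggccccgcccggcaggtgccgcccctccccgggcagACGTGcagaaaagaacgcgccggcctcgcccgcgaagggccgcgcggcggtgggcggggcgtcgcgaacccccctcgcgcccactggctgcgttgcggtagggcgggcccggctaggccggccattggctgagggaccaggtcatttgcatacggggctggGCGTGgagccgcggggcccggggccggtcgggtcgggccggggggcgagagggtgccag

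That core is short and common. It occurred in 48.4% of the 27305 promoters of the table. Of the member genes, 170 of 215 had a promoter there. It was present in 11 of 16 promoters of genes that rose (68.8%), in 2 of 6 of genes that fell (33.3%) and in 82 of 148 of genes not called (55.4%). These shares are descriptions of letters and carry no test.

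**Figure D2:**
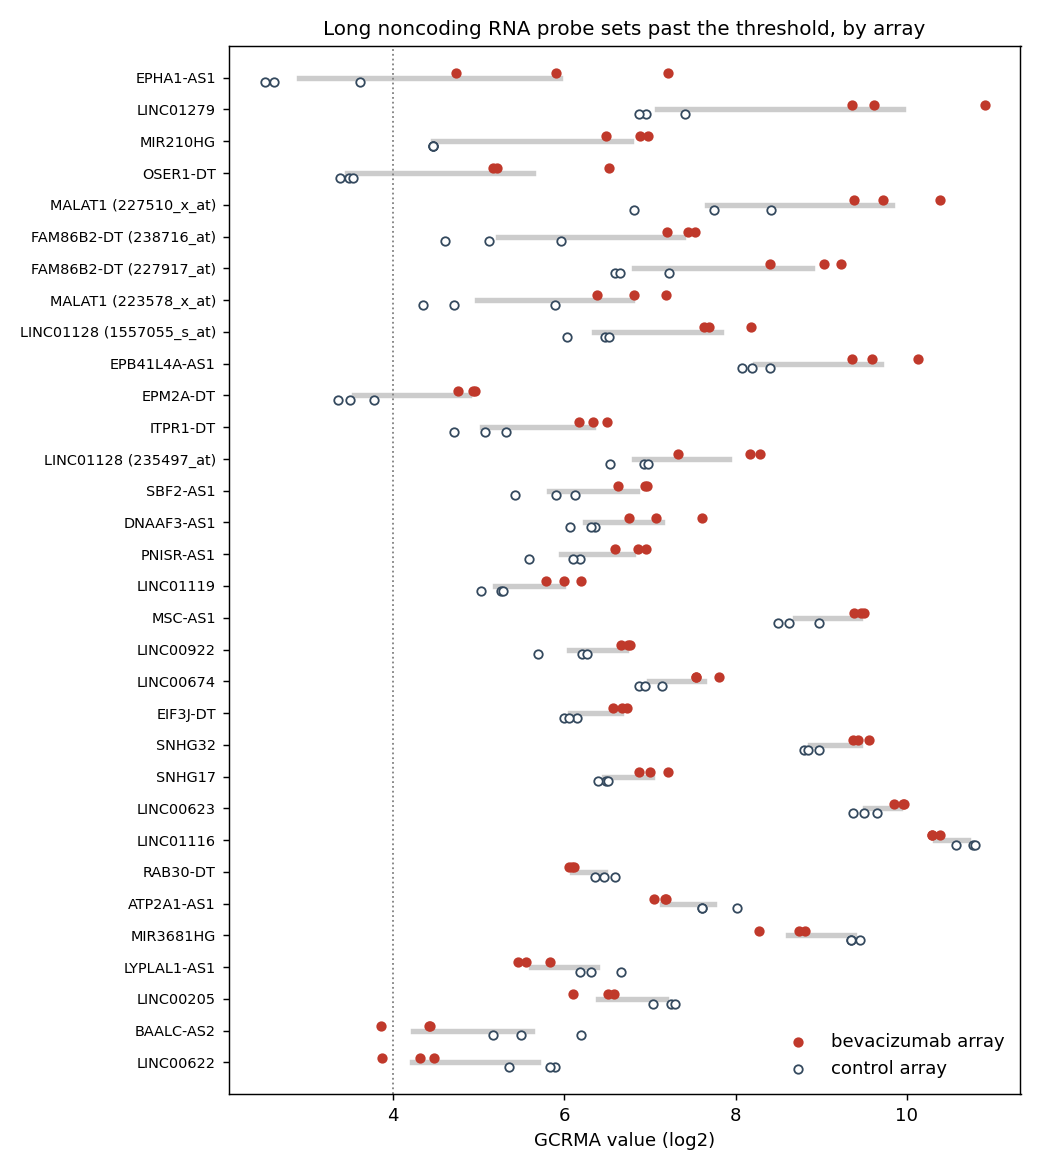
GCRMA values (log2, horizontal axis) of the 32 long noncoding RNA probe sets with an adjusted p under 0.05, ordered by difference, with bevacizumab arrays as filled red points, control arrays as open points and a grey bar between the group means. The dotted line marks the level of 4. The groups are apart in every row, and the control points of EPHA1-AS1, OSER1-DT and EPM2A-DT lie below 4.

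The other host genes of microRNAs differed less. MIR3681HG, host of miR-3681, read 8.81, 8.75 and 8.28 on bevacizumab arrays, against 9.35, 9.35 and 9.45 on control arrays. Every treated array was below every control, and the RNA fell by 0.77 on the log2 scale (SE 0.16, adjusted p = 0.0298, limma). The call held in 2 of the 6 leave-one-out fits. The mature sequences of its microRNA, at chr2:12199138-12199159 and chr2:12199174-12199195 on the plus strand (RefSeq, GRCh38.p14), share no seed with miR-210, and the seeds are again in capitals.
hsa-miR-3681-5p: uAGUGGAUgaugcacucugugc
hsa-miR-3681-3p: aCACAGUGcuucauccacuacu

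MIR100HG, host of miR-100, let-7a-2 and miR-125b-1, read 9.72, 9.83 and 9.02 on bevacizumab arrays, against 9.85, 9.44 and 9.76 on controls. The groups overlapped (difference -0.16, adjusted p = 0.674). MIR570HG also overlapped, with a difference of -0.19 (adjusted p = 0.713). Of 12 genes that process or use microRNAs, 11 were tested, with a median difference of 0.04. None rose and TNRC6A fell, a scaffold of the silencing complex, at 9.93 ± 0.24 in the bevacizumab group and 10.57 ± 0.08 in the control group (SD, n = 3 each, adjusted p = 0.0328, limma).

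MALAT1 was the gene with the most probe sets, and all 12 of them lay higher under bevacizumab. Their differences ran from 0.52 to 2.17, with a median of 0.99. The median over the 12 was 9.93, 9.44 and 10.24 on the bevacizumab arrays, against 8.99, 8.21 and 9.27 on the control arrays. Each treated array had a higher median than each control array.

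The probe sets of MALAT1 share a transcript, so 12 are not 12 independent observations. The groups did not overlap for 6 of them (50%, against 39.0% of all tested probe sets), and 2 passed the threshold (16.7%, against 15.4%). The probe set with the largest difference read 9.72, 9.38 and 10.39 on bevacizumab arrays, against 7.75, 6.81 and 8.42 on controls. It differed by 2.17 (SE 0.46, adjusted p = 0.0313). The other that passed read 6.81, 6.38 and 7.19 on bevacizumab arrays, against 4.71, 4.35 and 5.89 on controls, a difference of 1.81 (SE 0.43, adjusted p = 0.0430). Both carry the suffix by which the manufacturer marks probes that may also bind other transcripts. The brightest probe set read 13.37, 13.18 and 12.42 on bevacizumab arrays and 12.94, 11.28 and 12.97 on control arrays. These overlapped, with a difference of 0.59 (adjusted p = 0.461).

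Control arrays spread widely for MALAT1, with SDs of 0.36 to 1.42 across the 12 probe sets, against 0.25 to 0.70 for the bevacizumab arrays. Control array 2 was the lowest control in 10 of the 12. Without it the median difference was 0.47, the range was -0.08 to 1.74, and 11 of the 12 stayed above 0. Each of the 2 calls held in 1 of the 6 leave-one-out fits, that without control array 3.

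**Figure D3:**
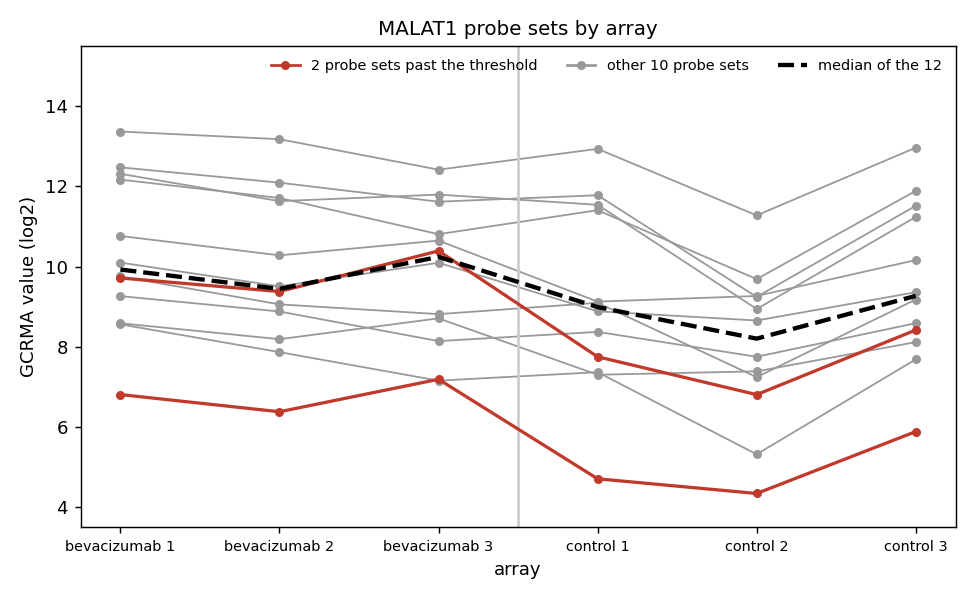
GCRMA values (log2, vertical axis) of the 12 MALAT1 probe sets on the 3 bevacizumab arrays, left, and the 3 control arrays, right. Each line joins the values of a single probe set and has no meaning between arrays. Red marks the 2 past the threshold and the dashed line the median of the 12, which is 9.44 to 10.24 on the bevacizumab arrays and 8.21 to 9.27 on the control arrays.

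Other long-studied transcripts could be followed less well. All 9 probe sets of NEAT1 and both of H19 carried several gene symbols, as did 4 of 5 for GAS5 and 4 of 5 for PVT1. The remaining probe set of GAS5 and of PVT1 was below the level of 4. No value of these 4 genes is given. MEG3, a maternally expressed imprinted RNA, had 10 probe sets, 2 of them over 4. The brighter read 4.83, 4.63 and 4.45 on bevacizumab arrays, against 4.43, 4.63 and 5.09 on controls, and the groups overlapped (difference -0.08, adjusted p = 0.806). The other differed by 0.23 (adjusted p = 0.747). Of the proteins that make up the bodies in which NEAT1 and MALAT1 reside, 8 paraspeckle proteins were tested and none passed, with a median difference of -0.31. Of 6 nuclear speckle proteins tested, none rose and the splicing factor SRSF1 fell. It was at 12.40 ± 0.38 in the bevacizumab group and 13.35 ± 0.15 in the control group (SD, n = 3 each, adjusted p = 0.0341, limma). The imprinted growth factor gene IGF2, next to H19, had no probe set of its own, DLK1, near MEG3, was under the level of 4, and MYC, near PVT1, differed by 0.23 (adjusted p = 0.159).

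Among hosts of small nucleolar RNAs, 2 of 8 probe sets, from 2 of 6 genes, rose and none fell, against 7.46% and 7.98% of all tested probe sets. SNHG32, whose introns carry small nucleolar RNAs of the C/D box kind, read 9.38, 9.43 and 9.56 on bevacizumab arrays, against 8.80, 8.85 and 8.97 on controls. The groups were tight and apart, with a difference of 0.58 (SE 0.10, adjusted p = 0.0167). SNHG17, which carries members of the SNORA71 family, read 6.87, 7.0 and 7.21 on bevacizumab arrays, against 6.49, 6.39 and 6.51 on controls. Every treated array was higher, with a difference of 0.56 (SE 0.11, adjusted p = 0.0286). Its other probe set overlapped between groups and differed by 0.14 (adjusted p = 0.568). SNHG18, SNHG19 and SNHG24 differed by 0.42, -0.03 and -0.52 without passing, and the probe sets of SNHG33 by -0.34 and -0.55. Of the core proteins that bind small nucleolar RNAs, 6 were tested, none passed, and their median difference was -0.21. Transcripts of this class are known targets of nonsense-mediated decay. Of its factors, 6 were tested, none passed, and the median difference was 0.01.

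Divergent transcripts gave 6 rises and 1 fall among 54 probe sets. That is 11.1% and 1.85%, against 7.46% and 7.98% of all tested probe sets, and 2 of the rises were of OSER1-DT and EPM2A-DT, which met the level rule through the bevacizumab arrays alone. Both probe sets of FAM86B2-DT, on chromosome 8, rose. Its brighter probe set read 8.40, 9.23 and 9.03 on bevacizumab arrays, against 6.59, 6.65 and 7.22 on controls, and the groups were more than 1 log2 unit apart. The differences were 2.07 (SE 0.27, adjusted p = 0.00964) and 2.16 (SE 0.34, adjusted p = 0.0146). The call of the brighter probe set was lost without control array 1.

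OSER1-DT read 5.21, 6.53 and 5.17 on bevacizumab arrays, against 3.48, 3.38 and 3.53 on controls. All controls were under 4 and all treated arrays over it, so the RNA met the level rule through the bevacizumab arrays alone and had to differ. Its fold was at least 3.11. EPM2A-DT was in the same position. It read 4.93, 4.96 and 4.76 on bevacizumab arrays, against 3.36, 3.49 and 3.78 on controls, at least 1.85-fold higher. The adjusted p of both, 0.0181 for OSER1-DT and 0.00567 for EPM2A-DT, are therefore descriptions. The protein-coding partner EPM2A encodes laforin, a phosphatase of glycogen.

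ITPR1-DT starts 185 bases from ITPR1, on the opposite strand. ITPR1 encodes a receptor for inositol trisphosphate that releases calcium from the endoplasmic reticulum. ITPR1-DT read 6.17, 6.50 and 6.33 on bevacizumab arrays, against 4.71, 5.08 and 5.32 on controls. Every treated array was clearly higher, with a difference of 1.30 (SE 0.18, adjusted p = 0.0110), and the call held whichever array was left out. ITPR1 itself read 10.99, 10.89 and 11.41 on bevacizumab arrays, against 9.39, 9.45 and 9.78 on controls. It too rose on every array, by 1.56 (SE 0.18, adjusted p = 0.00748).

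EIF3J-DT starts 224 bases from EIF3J, a subunit of a translation initiation factor, also on the opposite strand. EIF3J-DT read 6.57, 6.73 and 6.68 on bevacizumab arrays, against 6.15, 5.99 and 6.05 on controls, a rise of 0.60 (SE 0.09, adjusted p = 0.0139) without overlap. EIF3J read 10.90, 10.77 and 10.85 on bevacizumab arrays, against 11.42, 11.52 and 11.45 on controls. The coding gene fell by 0.62 on the log2 scale (SE 0.08, adjusted p = 0.0102), again without overlap, so this pair moved in opposite directions.

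The promoters of these 2 RNAs are shown because they are nearly those of their partners. The window of ITPR1-DT, chr3:4493114-4493413 on the minus strand, shares 284 of its 300 bases with that of ITPR1. The window of EIF3J-DT, chr15:44536874-44537173 on the minus strand, shares 277 of 300 with that of EIF3J. Each holds 1 copy of the core, in capitals, beginning at position -34 from the start of ITPR1-DT and at -134 from that of EIF3J-DT.
ITPR1-DT promoter: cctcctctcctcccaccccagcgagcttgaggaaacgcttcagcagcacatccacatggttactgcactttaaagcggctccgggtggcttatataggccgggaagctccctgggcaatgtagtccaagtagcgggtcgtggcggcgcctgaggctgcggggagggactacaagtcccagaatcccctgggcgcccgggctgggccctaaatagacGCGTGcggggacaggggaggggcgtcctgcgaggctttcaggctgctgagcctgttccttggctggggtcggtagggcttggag
EIF3J-DT promoter: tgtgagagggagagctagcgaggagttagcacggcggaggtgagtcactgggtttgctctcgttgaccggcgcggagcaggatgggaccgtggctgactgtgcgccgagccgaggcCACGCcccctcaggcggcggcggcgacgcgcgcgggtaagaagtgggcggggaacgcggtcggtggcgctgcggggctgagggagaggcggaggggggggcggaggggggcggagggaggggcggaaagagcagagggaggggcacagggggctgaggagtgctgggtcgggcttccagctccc

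RAB30-DT was the divergent RNA that fell. It read 6.11, 6.05 and 6.09 on bevacizumab arrays, against 6.47, 6.35 and 6.60 on controls, narrowly apart, and fell by 0.39 (SE 0.10, adjusted p = 0.0453). Its call was lost whichever array was left out. Of the uncalled divergent RNAs, ITGB1-DT had the largest difference. It read 6.27, 6.91 and 7.86 on bevacizumab arrays, against 4.86, 5.22 and 6.06 on controls. The groups did not overlap but spread widely (difference 1.63, SE 0.48, adjusted p = 0.0738).

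Antisense transcripts were the most numerous class, and 6 of 127 probe sets rose and 3 fell. That is 4.72% and 2.36%, against 7.46% and 7.98% of all tested probe sets. EPHA1-AS1, antisense to an ephrin receptor gene, read 7.21, 4.73 and 5.90 on bevacizumab arrays, against 2.61, 2.50 and 3.61 on controls. The treated arrays differed among themselves by more than 2 units, yet all were above 4 and all controls below it, which gave a fold of at least 3.85. It met the level rule through the bevacizumab arrays alone. The adjusted p was 0.0331 on the values as deposited and 0.0774 with values under 4 set to 4, which ended the call. EPB41L4A-AS1 was steadier. Its brighter probe set read 9.36, 9.59 and 10.13 on bevacizumab arrays, against 8.08, 8.19 and 8.40 on controls. The groups were nearly 1 unit apart, and the difference was 1.47 (SE 0.21, adjusted p = 0.0121). A dimmer probe set of the same gene overlapped between groups and differed by -0.26 (adjusted p = 0.308).

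SBF2-AS1 read 6.63, 6.94 and 6.96 on bevacizumab arrays, against 5.43, 5.90 and 6.13 on controls, a rise of 1.02 (SE 0.20, adjusted p = 0.0269). The remaining antisense rises were under 1 unit. DNAAF3-AS1 rose by 0.90, PNISR-AS1 by 0.84 and MSC-AS1, on chromosome 8, by 0.76. MSC-AS1 read 9.47, 9.39 and 9.50 on bevacizumab arrays, against 8.49, 8.62 and 8.98 on controls, without overlap.

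The antisense RNAs that fell were BAALC-AS2, LYPLAL1-AS1 and ATP2A1-AS1. BAALC-AS2, on chromosome 8, read 3.86, 4.41 and 4.43 on bevacizumab arrays, against 5.16, 5.50 and 6.19 on controls. No array overlapped, and the fall was by 1.38 (SE 0.30, adjusted p = 0.0342). LYPLAL1-AS1 fell by 0.77 (adjusted p = 0.0325) and ATP2A1-AS1 fell by 0.61 (adjusted p = 0.0376). Neither BAALC-AS2 nor ATP2A1-AS1 kept its call in any leave-one-out fit.

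The largest uncalled antisense differences came with wide spread. TMEM132D-AS1 read 4.38, 6.95 and 5.92 on bevacizumab arrays, against 3.08, 3.55 and 3.53 on controls. It too met the level rule through the bevacizumab arrays alone, was at least 3.37-fold higher there, and was not called (adjusted p = 0.0557). GAS6-AS1 read 5.01, 5.38 and 3.34 on bevacizumab arrays, against 6.69, 5.98 and 6.83 on controls. Bevacizumab array 3 stood well below the other treated arrays, no array overlapped between groups, and the difference of -1.92 missed the threshold (SE 0.56, adjusted p = 0.0720). SERTAD4-AS1 differed by -1.17 (adjusted p = 0.0611), with controls all at 9.09 to 9.18 and treated arrays at 7.21 to 8.43. Of the 27 probe sets with a difference of at least 1 in size, 16 passed and 11 did not. Those 11 came from 8 genes, with 4 from MALAT1. ITGB1-DT, TMEM132D-AS1, GAS6-AS1 and SERTAD4-AS1 were singled out after their values were seen.

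The protein-coding partner was not used in choosing these RNAs, so each pair could be set side by side. The 145 antisense and divergent genes had 143 partners, named by the symbol without its ending. Of these, 105 were tested by their brightest probe set, 25 were under the level of 4 and 13 had no probe set of their own. The last count includes HOXB and HOXD, which name gene clusters and not single genes. Among the 105, 13 rose and 8 fell, 20.0% together, against 15.4% of all probe sets in the same fit, and their median difference was -0.03. A separate limma fit of 10233 genes by their brightest probe set, adjusted over those genes alone, called 19.1% (9.09% higher and 9.97% lower). Its cut-off differs from that used for the partners. The counts of partners also leaned on single arrays, and were 3 higher and 2 lower without control array 2, and 4 higher and 1 lower without control array 1. They were 5 higher and 3 lower without bevacizumab array 2, and the same without control array 3. Without bevacizumab array 3 the rises numbered 7. Those fits called fewer of all tested probe sets too, 5.17% without control array 2, 3.02% without control array 1 and 7.06% without bevacizumab array 2. The share was 7.11% without control array 3 and 10.1% without bevacizumab array 3.

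Of the 15 antisense or divergent genes called, 10 had a tested partner, and the partner was called for ITPR1-DT and EIF3J-DT. For the other 8 it did not pass. MSC, a transcriptional repressor, differed by 0.63 (adjusted p = 0.0746), against 0.76 for MSC-AS1. BAALC differed by -0.37, LYPLAL1 by -0.24 and EPM2A by -0.17, while OSER1 differed by 0.31, RAB30 by 0.28, SBF2 by 0.13 and PNISR by -0.13. The partners ATP2A1, DNAAF3, EPB41L4A and EPHA1 were under the level of 4, and FAM86B2 had no probe set of its own.

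Conversely, 19 partners passed while the noncoding RNA did not. The largest was GAS6, a ligand of the AXL family of receptors, which read 7.17, 9.08 and 7.94 on bevacizumab arrays, against 5.44, 6.44 and 5.80 on controls. It rose without overlap, by 2.17 (SE 0.52, adjusted p = 0.0428), beside the difference of -1.92 of GAS6-AS1 that did not pass. ID2, an inhibitor of basic helix-loop-helix factors, rose by 1.66 (adjusted p = 0.00481), while ID2-AS1 differed by -0.24. FAM13A rose by 1.39 (adjusted p = 0.00543), beside 0.96 for FAM13A-AS1, which did not pass. Among the partners that fell, OIP5, a centromere protein, fell by 1.07 (adjusted p = 0.0285) and NEK2, a centrosomal kinase, fell by 0.86 (adjusted p = 0.0139). OIP5-AS1 and NEK2-DT differed by 0.39 and 0.20. GAS6, ID2, FAM13A, OIP5 and NEK2 were singled out after their values were seen.

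The 2 kinds of pair differed in layout. Of 30 divergent pairs with a start for both genes, all 30 lay on opposite strands and 28 started within 1000 bases of each other, with a median of 174 bases. Of 75 antisense pairs, 74 lay on opposite strands and 28 started within 1000 bases, with a median of 5004. Gene bodies overlapped in 6 of 40 divergent and 85 of 103 antisense pairs.

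**Figure D4:**
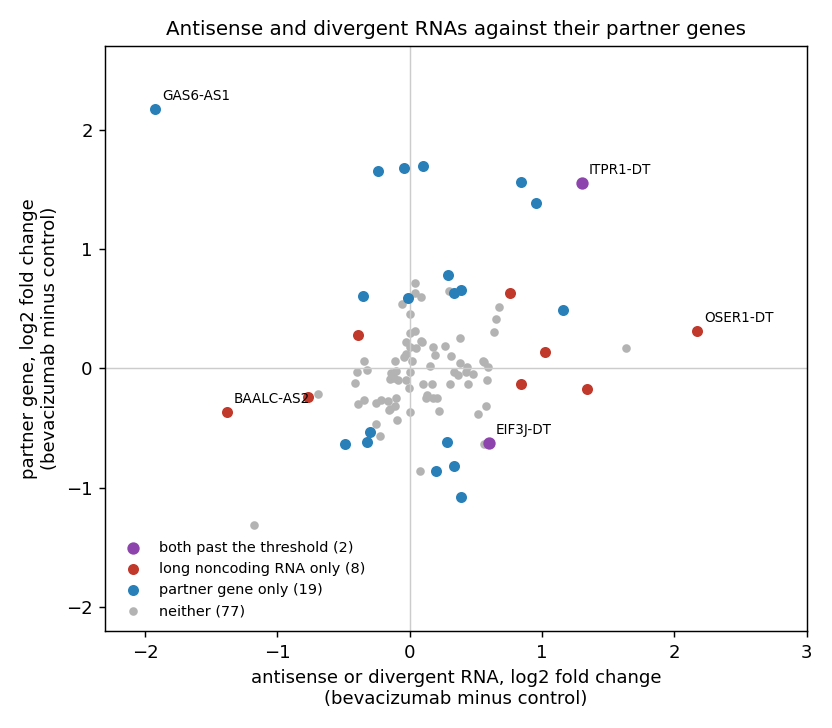
Log2 difference (bevacizumab minus control) of 106 pairs, with the antisense or divergent RNA on the horizontal and the protein-coding partner on the vertical axis. Colours mark which of the pair had an adjusted p under 0.05, namely both in 2 pairs, the noncoding RNA alone in 8, the partner alone in 19 and neither in 77. ITPR1-DT lies at upper right, EIF3J-DT at lower right and GAS6-AS1 at upper left.

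Intergenic transcripts gave 7 rises and 3 falls among 74 probe sets. Together that is 13.5%, near the 15.4% of all tested probe sets. LINC01279 showed the largest difference of this class. It read 9.36, 10.91 and 9.62 on bevacizumab arrays, against 6.95, 6.87 and 7.41 on controls. Bevacizumab array 2 was the highest, and every treated array was nearly 2 units above every control (difference 2.88, 7.38-fold, SE 0.42, adjusted p = 0.0123). The call was lost without control array 1 and without control array 2.

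LINC01128, on chromosome 1, rose by both of its measurable probe sets. The steadier of them read 7.69, 7.63 and 8.18 on bevacizumab arrays, against 6.03, 6.48 and 6.52 on controls, without overlap. It differed by 1.49 (SE 0.21, adjusted p = 0.0107) and kept its call whichever array was left out. The other differed by 1.11 (SE 0.28, adjusted p = 0.0494). LINC01119 rose by 0.80 (adjusted p = 0.0184), LINC00922 by 0.67 (adjusted p = 0.0499), LINC00674 by 0.64 (adjusted p = 0.0239) and LINC00623 by 0.42 (adjusted p = 0.0473).

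LINC00622, also on chromosome 1, had the largest fall of the 281 that passed. It read 4.47, 4.31 and 3.87 on bevacizumab arrays, against 5.35, 5.89 and 5.83 on controls. The nearest arrays of the groups were almost 1 unit apart, and the RNA fell by 1.47 (SE 0.22, adjusted p = 0.0125). Among the leave-one-out fits the call was lost without control array 2. It was also lost with the ACTB covariate (limma, adjusted p = 0.0787), as was every other call among the 281. With no filter on low values it was lost too (limma, adjusted p = 0.0814), and 3 of the 281 were called there. The promoter of EPM2A-DT, which rose and kept its call in all leave-one-out fits, held no match to the core. The promoter of LINC00622, chr1:119599242-119599541 on the minus strand, is shown as that of the fall kept in the most leave-one-out fits. It held no match either.
LINC00622 promoter: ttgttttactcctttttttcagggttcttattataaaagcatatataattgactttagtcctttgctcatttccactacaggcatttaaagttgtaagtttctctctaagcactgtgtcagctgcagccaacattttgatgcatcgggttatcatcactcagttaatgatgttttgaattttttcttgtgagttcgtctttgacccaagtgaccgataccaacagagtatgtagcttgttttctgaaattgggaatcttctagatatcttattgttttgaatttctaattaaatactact

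LINC00205, on chromosome 21, was followed by 5 probe sets, and all 5 lay lower under bevacizumab, by -0.10 to -0.85. The one that passed read 6.51, 6.58 and 6.10 on bevacizumab arrays, against 7.04, 7.24 and 7.29 on controls, without overlap. It fell by 0.79 (SE 0.16, adjusted p = 0.0265). LINC01116 read 10.30, 10.39 and 10.30 on bevacizumab arrays, against 10.77, 10.58 and 10.80 on controls. This fall of 0.39 (SE 0.10, adjusted p = 0.0484) was among the smallest that passed, and it was lost whichever array was left out.

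Probe sets of a gene did not always move together. Of the 40 genes with more than 1 measurable probe set, 15 had all of them above 0, 13 had all below 0 and 12 had both signs. OIP5-AS1 was of the last kind. Its brightest probe set read 10.43, 10.68 and 10.33 on bevacizumab arrays, against 10.09, 9.98 and 10.21 on controls, a difference of 0.39 that missed the threshold (adjusted p = 0.0892). Another differed by 0.53 (adjusted p = 0.0533) and the remaining probe set by -0.22.

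Some of the RNAs with the highest means were not called. FGD5-AS1 read 10.81, 10.77 and 10.56 on bevacizumab arrays, against 10.80, 10.79 and 10.98 on controls (difference -0.14, adjusted p = 0.399). LINC00973 read 10.27, 10.27 and 10.50 on bevacizumab arrays, against 10.54, 10.66 and 10.85 on controls. Its groups were just apart, with a difference of -0.34 (adjusted p = 0.117). At the edge of the level rule, KCNJ5-AS1, KDM7A-DT and ZNF22-AS1 averaged 4.04 each and were kept, while MCM3AP-AS1 at 3.99, a probe set of LINC01550 at 3.95 and ZNF8-DT at 3.93 were left out. Of the 281, 251 were at or above 4 on all 6 arrays, 7 were under 4 on all 3 controls and 1 was under 4 on all 3 bevacizumab arrays.

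The call held in all 6 leave-one-out fits for 4 probe sets, those of MIR210HG, EPM2A-DT and ITPR1-DT and the steadier of LINC01128. Of these, EPM2A-DT had met the level rule through the bevacizumab arrays alone, and the control arrays of MIR210HG shared a single value. For 7 it held in none, those of ATP2A1-AS1, BAALC-AS2, LINC00623, LINC00922, LINC01116, PNISR-AS1 and RAB30-DT. The other 21 lay between. Among them, EPB41L4A-AS1 and EIF3J-DT kept the call in 4 fits, SNHG32 in 3, and SNHG17 and SBF2-AS1 in 2. With the ACTB covariate none of the 32 calls held.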

How the data were processed

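Total RNA of U87-EV xenografts was labelled by oligo(dT) priming, from 10 µg per sample, and hybridised to human Affymetrix arrays, 3 for bevacizumab and 3 for control. The values used are the log2 values the authors deposited, made with GCOS 1.1.1.052 and GCRMA per the submitters' processing notes; the scale was inferred from the values. Batches are not given in the sources used here. The number of arrays limits the precision.

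Probe sets were named through the platform annotation. Those with 1 symbol and a mean of at least 4 over the 6 arrays, 18469 in all, entered the fit (limma 3.58.1, R 4.3.3, lmFit and eBayes, no covariate, two-sided, Benjamini-Hochberg over all 18469). An adjusted p under 0.05 counts as called, and every p in the text without another name comes from this fit. A group under 4 on all its arrays was set to 4 for the fold, which is then a lower bound. Of the 281 probe sets, 278 matched the gene table by identifier; LINC00973, LINC01279 and SNHG24 did not. Promoter and microRNA sequences come from RefSeq (GRCh38.p14). On simulated data with 200 of 18469 probe sets changed, the fit recovered 2% of changes of 0.5 on the log2 scale, 58% of 1, 92% of 2 and 100% of 4, with 10 false calls of 136. The fit of the real data called 2851 probe sets, and the Benjamini-Hochberg cut-off is looser where more are called. The simulated rates therefore do not give the share of real changes that was recovered.

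The members, gene lists, tests and alternatives were chosen with earlier results of these data known. Named were every called member, the 6 genes listed by name, the SNHG and MIR host genes, the 8 highest means, the neighbours of the level rule and the partners of called members. Other settings varied the filter, scaling, tested unit, eBayes prior, array weights, covariate, replicate block, symbols and arrays.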

Additional observations from a re-analysis of the deposited data

How the results depend on the processing

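No named result changed sign while called. The counts of long noncoding RNA probe sets, 24 higher and 8 lower, stayed within 1.5 times under 1 probe set per gene, a filter at 6, a floor at 4, both scalings, the eBayes trend, array weights, updated symbols and a widened membership that was chosen after seeing the data. That last setting added 68 probe sets with several symbols, of which 5 rose and 3 fell. With no filter on low values the counts were 3 higher and 0 lower (limma, with 59 at an unadjusted p under 0.05). With the ACTB 3′ to 5′ difference as a covariate they were 0 and 0 (limma, 45 at an unadjusted p under 0.05). A replicate block gave 14 higher and 1 lower, and 12 of the 32 calls were shared. Calls fell over all tested probe sets too, to 1.49% with no filter, 0.114% with the covariate and 5.64% with the block. Of the 281 these shares were 1.07%, 0% and 5.34%. Same-numbered arrays did not deviate together (correlations of -0.04, -0.003 and -0.16), so the numbers are not taken as pairs. Leaving out an array gave 5 to 26 higher and 0 to 4 lower. In those fits 3.02% to 15.1% of all tested probe sets were called, against 1.78% to 10.7% of the 281. For partner genes, 13 higher and 8 lower, the counts were 2 and 2 with no filter, 0 and 0 with the covariate, and 6 and 1 with the replicate block. For these genes, leaving out an array gave 3 to 12 higher and 1 to 9 lower. The shares of all tested probe sets just given belong to the same fits. The cause of these shifts was not tested. With 3 arrays per group, most changes of 0.5 on the log2 scale were missed in the simulation. In the data some of that size were called, the smallest a rise of 0.42 and a fall of 0.39. Values near the floor have no order.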
